A study of Rattus with 6 samples.

Results

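The genes described here are Prl, which encodes the hormone prolactin, and Pou1f1, which encodes the pituitary POU-homeodomain activator also called Pit-1. They were taken by symbol, as every row of the deposited exon table named Prl or Pou1f1. This gave 2 of the 12801 genes and 11 of the 118147 exons in the table, and both genes passed the filter on low values that left 12502 genes for testing. RNA came from RC-4B/C, a cell line of a rat pituitary adenoma. The tested cells, 3 libraries labelled ASA, received aspirin (acetylsalicylic acid, an inhibitor of the cyclooxygenases). The cells they were set against, 3 libraries labelled DMSO, received the solvent dimethyl sulfoxide. The labels used here give neither a dose nor a duration, and they do not say whether libraries of one group were separate cultures, so p-values measure the spread between these libraries only. Replicate numbers merely name libraries.

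Prolactin is the secreted hormone of lactotroph cells and is best known for driving milk production. Its gene is switched on in the anterior pituitary by Pou1f1, which binds as a dimer to sites in the promoter and distal enhancer of Prl and also activates the growth hormone and thyrotropin β genes. Estrogen, growth factors, calcium and cyclic AMP signals raise Prl transcription in lactotrophs, and dopamine from the hypothalamus restrains it through the receptor Drd2.

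In the build of the files, Rnor_6.0, the listed exons of Prl (ENSRNOG00000017374) lie on the minus strand of chromosome 17 between 39814379 and 39824116. They are 5 exons with 678 bases in all, a length of 226 codons. Those of Pou1f1 (ENSRNOG00000000715) lie on the plus strand of chromosome 11 between 2645981 and 2661212. They are 6 exons with 873 bases, a length of 291 codons. For 75% of genes in the table the listed length is a multiple of 3, as for both members. Whether untranslated bases are among the listed exons was not tested.

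Gene values are RPKM, that is reads scaled to the length of the listed exons and to the reads of the library, rebuilt from the deposited log2 exon values. The listed exons held 92073423, 66492445 and 87360309 reads in ASA replicates 1, 2 and 3, and 94486062, 82189699 and 91964390 reads in DMSO replicates 1, 2 and 3. ASA replicate 2 stood apart: 497 of its exons had 0 reads, against 4 to 13 in each of the other 5 libraries. Its TMM factor, an alternative to scaling by library totals, was 0.840, against 0.997 to 1.07 in the others. Values printed here are not divided by these factors, which would raise ASA replicate 2 relative to the other libraries. Of the lactotroph markers 4 of 5 had a row, and their summed level was 14929 to 63079 RPKM in ASA and 22980 to 63084 RPKM in DMSO libraries, nearly all of it Prl. The other defining hormones of the Pou1f1 lineage, Gh1 of somatotrophs and Tshb of thyrotrophs, had no row in the table used here, nor did Lhb and Fshb of gonadotrophs. No marker of folliculostellate or endothelial cells had a row (0 of 4 each). Of the macrophage markers only Cd14 had one (1 of 5), at 3.28 to 19.3 RPKM in ASA and 18.2 to 34.5 RPKM in DMSO libraries. Of the fibroblast markers only Dcn had one (1 of 4), at 2113 to 3207 RPKM in ASA and 1067 to 1108 RPKM in DMSO libraries. Rows exist only for exons with over 10 reads in at least 4 of the 6 libraries, so a missing row does not show that a gene was silent.

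Prl was the gene with the highest RPKM in all 6 libraries, and its level was not distinguishable between aspirin and solvent. Prl had 14037, 62101 and 26174 RPKM in ASA replicates 1, 2 and 3, against 22006, 62170 and 41835 RPKM in DMSO replicates 1, 2 and 3. The groups overlapped: scaled by library totals, the highest library of each group had nearly the same level, and ASA replicate 1 was the lowest of all. The ASA mean was 34104 ± 24994 RPKM and the DMSO mean 42003.5 ± 20082.5 RPKM (SD, n = 3 each). On the log2(RPKM + 0.1) scale Prl differed by -0.44 ± 0.71 (SE), a 1.36-fold lower level in ASA, with an adjusted p of 0.70 (limma, Benjamini-Hochberg). The 95% interval of the fold ran from 0.235 to 2.30, so neither a 2-fold rise nor a 2-fold fall lies outside it. The direction rests on ASA replicate 1, since without that library the difference was 0.07 (adjusted p = 0.956), and without ASA replicate 2 it was -1.01 ± 0.58 (adjusted p = 0.251). In RNA from a whole culture, fewer cells of a type and less RNA per cell cannot be told apart.

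The spread of Prl between libraries of one treatment was larger than that of most tested genes. DMSO libraries alone spanned 2.83-fold and ASA libraries 4.42-fold. The SD of log2 values was 1.08 in ASA and 0.756 in DMSO libraries, against medians over all tested genes of 0.413 in ASA and 0.182 in DMSO libraries. Of the 12502 tested genes, 1001 had a larger SD than Prl among ASA libraries and 542 had a larger one among DMSO libraries. Counting error was 0.0537% to 0.107% of the value in each library, far below this spread. All 30 exon values of Prl came out as whole reads within 0.02 read.

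Prl took a percent-level part of each library. Its share of the reads in listed exons was 0.952%, 4.21% and 1.77% in ASA replicates 1, 2 and 3, and 1.49%, 4.22% and 2.84% in DMSO replicates 1, 2 and 3. The exact binomial 95% intervals, which cover counting error only, were narrow, for example 0.950% to 0.954% in ASA replicate 1. The ASA mean was 2.31% ± 1.69 and the DMSO mean 2.85% ± 1.36 (SD, n = 3 each). The difference of -0.536 percentage points was within the spread between libraries (two-sided exact permutation test, p = 0.7, where 3 against 3 libraries cannot go below 0.1). It turned positive without ASA replicate 1 (0.145 percentage points) and without DMSO replicate 2 (0.148 percentage points).

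The summed gene value of Pou1f1 varied far less than that of its target, and it was also not distinguishable between treatments. Pou1f1 had 768, 804 and 603 RPKM in ASA replicates 1, 2 and 3, against 714, 584 and 710 RPKM in DMSO replicates 1, 2 and 3. The groups overlapped, with the highest value in ASA replicate 2 and the lowest in DMSO replicate 2. The ASA mean was 725 ± 108 RPKM and the DMSO mean 669 ± 73.8 RPKM (SD, n = 3 each). The log2 difference was 0.11 ± 0.20 (SE), a 1.08-fold higher level in ASA with a 95% interval of 0.777 to 1.5 and an adjusted p of 0.744 (limma). A 2-fold change of the summed value in either direction lies outside that interval. The sum holds opposite shifts of exons in ASA replicate 2, so the interval does not bound a change in part of the gene. Exons 1 to 3 alone differed by 0.39 ± 0.31 and exons 4 to 6 by -0.52 ± 0.41 (SE), groups chosen after their values were seen. By RPKM Pou1f1 ranked 94, 119 and 132 among all genes in ASA replicates 1, 2 and 3, and 109, 173 and 116 in DMSO replicates 1, 2 and 3. Scaled by library totals, all 6 libraries lay within 1.38-fold of each other, and 6843 tested genes had a larger SD among DMSO libraries. Neither member was among the 1400 tested genes past an adjusted p of 0.05, which is 11.2% of the 12502 genes tested. The sign of the Pou1f1 difference depends on which exons are used, as described with its exons.

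**Figure D1:**
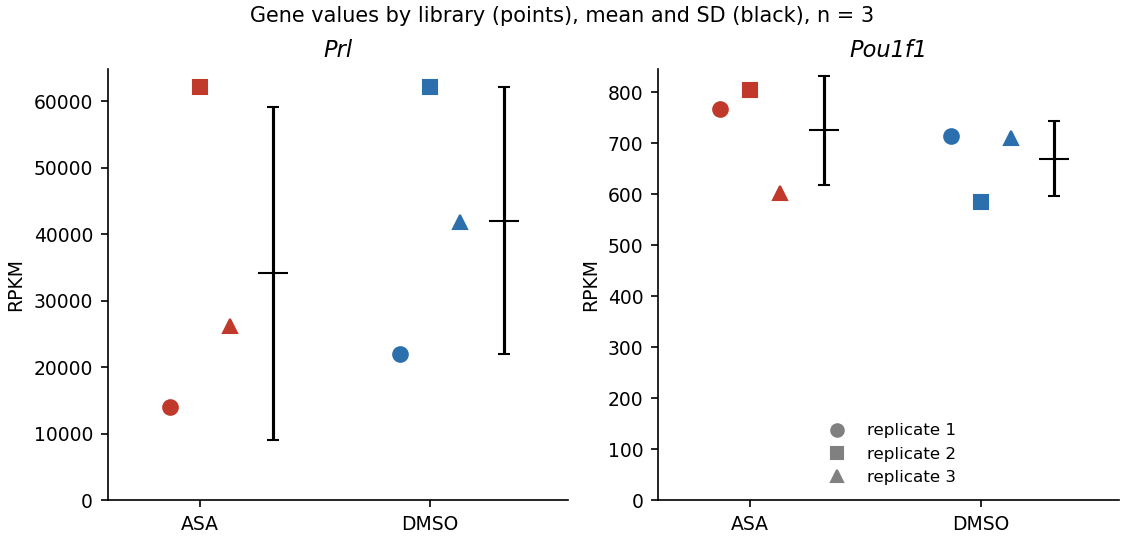
RPKM of Prl and Pou1f1 in each library (points, shaped by replicate number), with ASA libraries in red left of DMSO libraries in blue. Horizontal black marks and bars are the mean and SD of 3 libraries. Prl libraries of 1 treatment lie up to 4.42-fold apart and the groups overlap, while all 6 Pou1f1 values lie between 584 and 804 RPKM.

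The plot of gene values by library shows that the order of libraries by Prl was not their order by Pou1f1. DMSO replicate 2 had the highest Prl and the lowest summed Pou1f1, and ASA replicate 2 was high for Prl and for summed Pou1f1. In the last exons of Pou1f1, however, ASA replicate 2 was the lowest library, at 229 RPKM, against 1374 RPKM in its first exons. The coefficients given here use the summed value, so they do not speak for a part of the gene. Across the 6 libraries Pearson's r between Prl and summed Pou1f1 was -0.19 (permutation p = 0.665). Spearman's rho was -0.37 (permutation p = 0.497), both on log2 values. Without DMSO replicate 2 and ASA replicate 3, the 2 libraries farthest from the median of Pou1f1, r was 0.25 (permutation p = 0.667) and rho 0.2 (permutation p = 0.917), so the sign rests on those libraries. This was the only relation tested, and both coefficients missed the threshold.

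The level of Prl per Pou1f1, both in RPKM, was 18.3, 77.2 and 43.4 in ASA replicates 1, 2 and 3, against 30.8, 106 and 58.9 in DMSO replicates 1, 2 and 3. Each group held a wide range and the 2 ranges overlapped. On the log2 scale the ratio had an ASA mean of 5.30 ± 1.05 and a DMSO mean of 5.85 ± 0.89 (SD, n = 3 each). The difference of -0.55 was smaller than either SD (two-sided exact permutation test over 20 arrangements, p = 0.6, with 0.1 the smallest p possible). Without ASA replicate 1 it was 0.0024, practically nil.

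Exon by exon, 5 of the 6 libraries gave a similar Pou1f1 profile and ASA replicate 2 gave another. Pou1f1 exon 1 (142 bases, 2645981 to 2646122) had 854, 1766 and 669 RPKM in ASA replicates 1, 2 and 3, against 740, 629 and 747 RPKM in DMSO replicates 1, 2 and 3. Exon 2 (72 bases, 2648738 to 2648809) had 1180, 2388 and 837 RPKM in ASA, against 970, 768 and 988 RPKM in DMSO replicates 1, 2 and 3. In both, ASA replicate 2 was over 2 times the mean of the DMSO libraries and ASA replicate 3 lay inside their range. ASA replicate 1 lay above every DMSO library in both, at 0.28 and 0.39 above the DMSO mean on the log2 scale. In exons 3 to 6 it stood at 0.12 to 0.19. Exon 3 (225 bases, 2657022 to 2657246) had 658, 801 and 519 RPKM in ASA, against 617, 503 and 624 RPKM in DMSO replicates 1, 2 and 3. From the next exon on, ASA replicate 2 was the lowest library.

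Exon 4 of Pou1f1 (165 bases, 2659285 to 2659449) had 662, 304 and 536 RPKM in ASA replicates 1, 2 and 3, against 648, 534 and 658 RPKM in DMSO replicates 1, 2 and 3. Exon 5 (61 bases, 2660105 to 2660165) had 1037, 172 and 824 RPKM in ASA, against 1006, 830 and 997 RPKM in DMSO replicates 1, 2 and 3. Exon 6, the last listed (208 bases, 2661005 to 2661212), had 689, 186 and 554 RPKM in ASA, against 680, 546 and 639 RPKM in DMSO replicates 1, 2 and 3. These low values of ASA replicate 2 rest on many reads. Exon 5 had 5823, 698 and 4393 reads in ASA and 5797, 4159 and 5591 reads in DMSO replicates 1, 2 and 3. Relative to the DMSO mean, ASA replicate 2 stood at 1.33, 1.40, 0.47, -1.01, -2.45 and -1.74 on the log2 scale in exons 1 to 6. The high and low exons offset each other in the summed gene value.

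**Figure D2:**
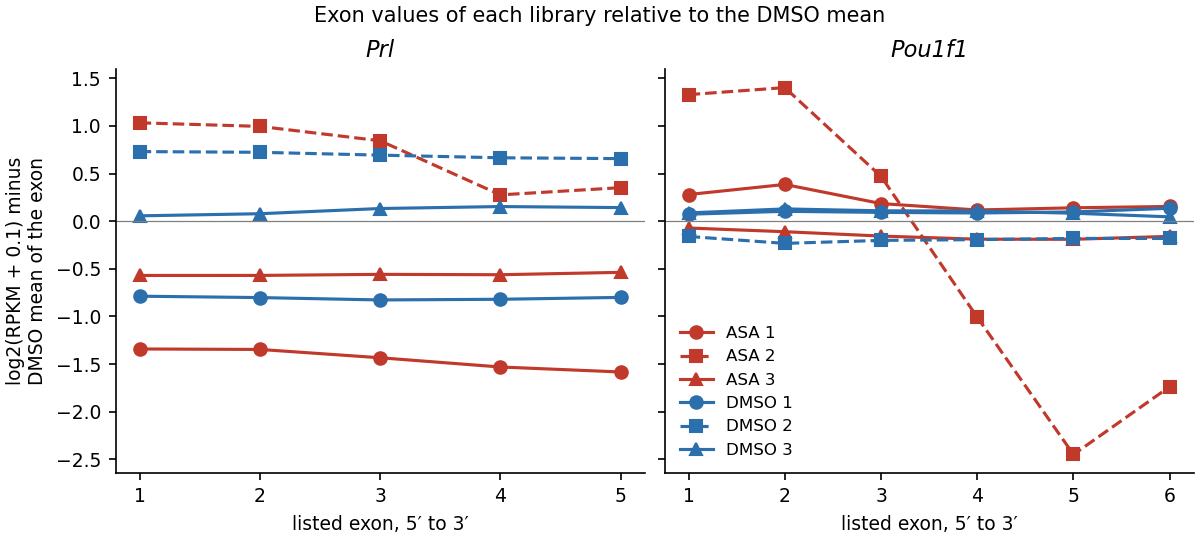
Exon values of Prl and Pou1f1 in each library as log2(RPKM + 0.1) minus the mean of the DMSO libraries for that exon, with exons in 5′ to 3′ order on the horizontal axis. For Pou1f1, ASA replicate 2 runs between 1.40 above and 2.45 below the DMSO mean while the other 5 libraries stay nearer level. Of these, ASA replicate 1 lies between 0.12 and 0.39 above the DMSO mean. For Prl, libraries run nearly parallel, apart from a step in ASA replicate 2 between exons 3 and 4. ASA replicate 1 falls from -1.34 in exon 1 to -1.58 in exon 5.

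The plot of exon profiles also shows Prl, whose exons kept closer to each other than those of Pou1f1 in ASA replicate 2. Set against their DMSO means, exons ranged over 0.757 log2 units for Prl and 3.85 for Pou1f1 there. Elsewhere no range of either gene was above 0.268, and in DMSO replicates 2 and 3 that of Prl was the larger. Exon 1 of Prl (28 bases, 39824089 to 39824116) had 33523, 173847 and 57242 RPKM in ASA replicates 1, 2 and 3, against 49225, 141013 and 88330 RPKM in DMSO replicates 1, 2 and 3. Exon 2 (173 bases, 39822298 to 39822470) had 16372, 82999 and 28058 RPKM in ASA, against 23878, 68734 and 43959 RPKM in DMSO replicates 1, 2 and 3. In both of these exons ASA replicate 2 was the highest library. Exon 3 (108 bases, 39820472 to 39820579) had 14207, 68920 and 26071 RPKM in ASA, against 21640, 62076 and 42095 RPKM in DMSO replicates 1, 2 and 3. Exon 4 (180 bases, 39817614 to 39817793) had 11534, 40367 and 22575 RPKM in ASA, against 18881, 52875 and 37078 RPKM in DMSO replicates 1, 2 and 3. Here and in exon 5 DMSO replicate 2 was the highest, so the order of the top libraries depends on the end of the transcript that is read. Exon 5, the last listed (189 bases, 39814379 to 39814567), had 11300, 43220 and 23333 RPKM in ASA, against 19445, 53387 and 37382 RPKM in DMSO replicates 1, 2 and 3. Exon 1 stood at 2.19 to 2.80 times the gene's RPKM in ASA and 2.11 to 2.27 times in DMSO libraries. Very short exons often did in this table: over 2926 exons of 20 to 40 bases the median log2 ratio of exon to gene was 0.84 in DMSO libraries, against 1.144 for Prl exon 1, and 868 of them were higher.

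No exon of either gene passed the exon test, in which 2.53% of 117759 exons were called. For Prl the log2 differences of exons 1 to 5 were -0.29, -0.31, -0.38, -0.61 and -0.59, with adjusted p from 0.561 to 0.833 (limma). For Pou1f1 those of exons 1 to 6 were 0.51, 0.56, 0.17, -0.36, -0.83 and -0.58, with adjusted p from 0.402 to 0.686 (limma). The size of these differences, positive in the first 3 exons and negative in the last 3, rests on ASA replicate 2. Summed over exons 1 to 3, Pou1f1 differed by 0.39 ± 0.31 (adjusted p = 0.416), and over exons 4 to 6 by -0.52 ± 0.41 (adjusted p = 0.419, limma). These exon groups were chosen after their values were seen. Without ASA replicate 2 they differed by 0.07 (adjusted p = 0.804) and -0.02 (adjusted p = 0.951), and the whole gene by 0.03 (adjusted p = 0.923). In limma's test of exon usage, which asks whether an exon differs by another amount than the rest of its gene, 0.0559% of 116221 exons were called and none of the 11 members, each with an adjusted p of 0.999994. That test assumes 1 spread for all exons of a gene.

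To see how ASA replicate 2 compared with other genes, the last exons of each gene were set against its first ones. For Pou1f1 these were exons 4 to 6 and 1 to 3, and for Prl exons 4 and 5 and exons 1 and 2, the middle exon being left out. The first exons of Pou1f1 had 807, 1374 and 620 RPKM in ASA and 715, 587 and 723 RPKM in DMSO replicates 1, 2 and 3. Its last exons had 728, 229 and 585 RPKM in ASA and 714, 581 and 696 RPKM in DMSO replicates 1, 2 and 3. Only ASA replicate 2 departed from a ratio near 1. The log2 ratio of last to first exons, minus the DMSO mean, was -0.12, -2.56 and -0.06 in ASA and 0.02, 0.0086 and -0.03 in DMSO replicates 1, 2 and 3. In ASA replicate 2 only 25 of 9112 genes were lower. For Prl the same quantity was -0.21, -0.69 and 0.02 in ASA and -0.01, -0.06 and 0.08 in DMSO replicates 1, 2 and 3. Of the 9112 genes, 1292 were lower than Prl in ASA replicate 2, and 1094 in ASA replicate 1, where genes spread less. Over all these genes ASA replicate 2 had a median of 0.07, so transcripts as a whole did not lean to one end, but 5% of genes lay below -1.20 and 5% above 1.28. The range of log2 values between exons, each first set against its DMSO mean, was 3.85 for Pou1f1 and 0.757 for Prl in ASA replicate 2, with a median of 1.88 over 5512 genes. That median was 0.223 to 0.427 in the other 5 libraries. Whether the uneven exons of ASA replicate 2 bear on any treatment difference was not tested beyond leaving that library out.

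**Figure D3:**
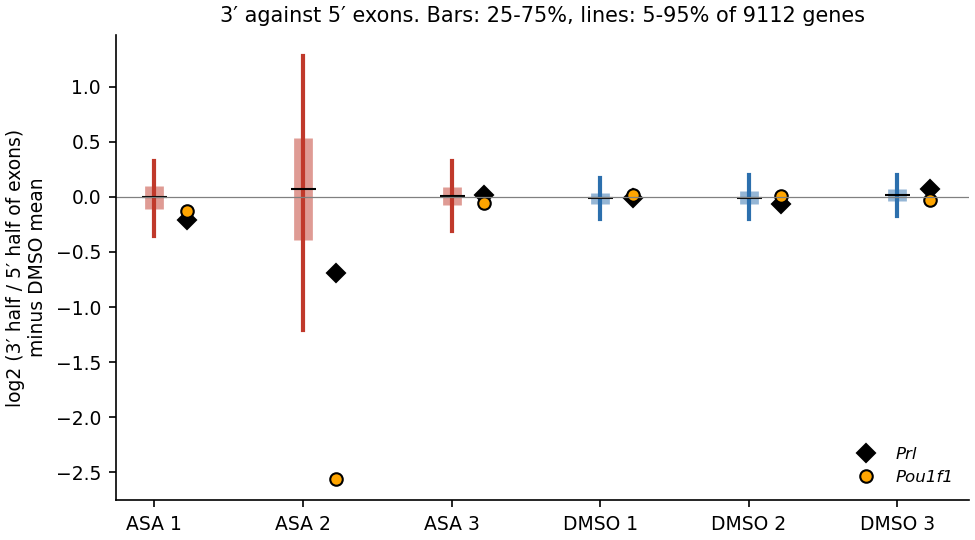
Log2 ratio of the last to the first exons of a gene, minus its mean over DMSO libraries, in each library. Boxes and lines hold the middle 50% and 90% of 9112 genes. Prl (black diamonds) and Pou1f1 (orange circles) lie at -0.69 and -2.56 in ASA replicate 2, where the lines alone run from -1.20 to 1.28. In the other 5 libraries they lie nearer 0, the farthest being Prl in ASA replicate 1 at -0.21.

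The genes whose levels followed Prl most closely across the 6 libraries were Snap91 (r = 0.982), Itpk1 (0.979), Cacna2d3 (0.969), Nfatc3 (0.966) and Tspan13 (0.964). They were taken by Pearson's r on log2(RPKM + 0.1) among 8245 genes with a mean of at least 10 RPKM, of which 44 had r above 0.9. The 6 points are the same libraries for every gene, so these are descriptions. Itpk1, an inositol phosphate kinase, had 52.7, 147 and 79.5 RPKM in ASA, against 75.2, 121 and 97.5 RPKM in DMSO replicates 1, 2 and 3. Cacna2d3, an auxiliary calcium channel subunit, had 9.75, 20.6 and 12.7 RPKM in ASA, against 14.5, 21.5 and 17.9 RPKM in DMSO replicates 1, 2 and 3. Tspan13, a tetraspanin, had 153, 370 and 217 RPKM in ASA, against 251, 385 and 332 RPKM in DMSO replicates 1, 2 and 3. All kept the order of libraries seen for Prl at its extremes, with ASA replicate 1 lowest and the second replicates high, but with a smaller amplitude. Per unit of log2 Prl they moved by 0.59, 0.49 and 0.58, Snap91 by 0.27 and Nfatc3 by 0.10. Snap91, a clathrin assembly protein, thus ranged between 21 and 31.2 RPKM and Nfatc3, a calcium-regulated transcription factor, between 22.8 and 26.3 RPKM.

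Those that followed Pou1f1 most closely were Smg6 (r = 0.989), Galt (0.986), Cyb5r3 (0.974), Timm50 (0.952) and Polr2c (0.951), and 22 of the 8245 genes had r above 0.9. Galt, an enzyme of galactose metabolism, had 14.7, 16.5 and 11.6 RPKM in ASA, against 14.1, 11.5 and 14.2 RPKM in DMSO replicates 1, 2 and 3. Timm50, a subunit of the mitochondrial import machinery, had 138, 149 and 105 RPKM in ASA, against 144, 95 and 125 RPKM in DMSO replicates 1, 2 and 3. Both were highest in ASA replicate 2 and low in ASA replicate 3 and DMSO replicate 2, as was the summed Pou1f1 value. Smg6, a nonsense-mediated decay factor, lay between 10.1 and 12.9 RPKM, Cyb5r3, cytochrome b5 reductase, between 146 and 180 RPKM, and Polr2c, a subunit of RNA polymerase II, between 108 and 137 RPKM. None of these 10 genes passed the threshold for ASA against DMSO, with adjusted p from 0.383 to 0.868 (limma).

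**Figure D4:**
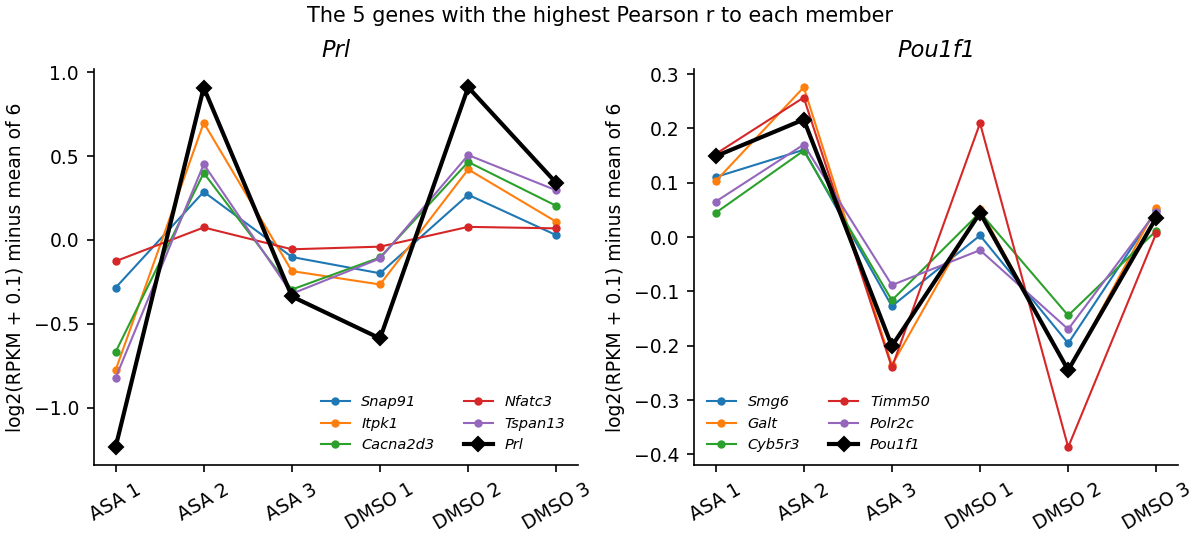
Log2(RPKM + 0.1) minus the mean of the 6 libraries for Prl and Pou1f1 and for the 5 genes most like each, by library. Genes like Prl share its low value in ASA replicate 1 with a smaller amplitude, and genes like Pou1f1 share its high summed value in ASA replicate 2.

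In the plot of the most similar genes, the sets nearest Prl and nearest Pou1f1 share no gene. The r with Pou1f1 of the 5 genes nearest Prl ran from -0.16 to -0.08, and the r with Prl of the 5 genes nearest Pou1f1 from -0.31 to -0.04, values that follow from how the genes were chosen and the low r between the members.

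Genes upstream of Prl and Pou1f1 were described from lists of roles, beside granule, prolactin receptor signalling, other hormone and related family genes. Of the lists described below, 22 genes passed the gene test, against a background of 6.21% of tested genes higher and 4.99% lower in ASA. By list, the share of tested members called ran from 0% (3 POU domain genes) to 33.3% (3 hormone genes). It was 3.1% of 32 signalling genes and 25% of 28 factors at the promoter, against 11.2% of all genes tested. The lists were chosen with earlier results of these data known, so these shares are descriptions only. The median log2 difference of all tested genes was -0.06. Leaving out the library that stood apart, ASA replicate 2, kept all 22 calls. In that setting 2618 of 12516 genes (20.9%) were called, 1608 higher and 1010 lower, so counts given below without ASA replicate 2 have this larger background. Leaving out ASA replicate 1 kept 20, with Camk2d and Vamp2 lost, in a setting where 2018 of 12488 genes (16.2%) were called. Without DMSO replicate 2 there were 10 left, and without DMSO replicate 1 only Neurod4 remained past the threshold. Without ASA replicate 3, or without DMSO replicate 3, limma called 0 genes in the whole table, with 2924 and 2342 genes at an unadjusted p under 0.05. The direction of all 22 was the same in each of these settings.

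Of the transcription factors of the pituitary lineage, 9 of 22 had a row and were tested. None was higher and 2 were lower, with a median log2 difference of -0.25. Neurod4, a basic helix-loop-helix factor, had 25.5, 21.5 and 31.5 RPKM in ASA, against 61.0, 93.9 and 77.1 RPKM in DMSO replicates 1, 2 and 3. It fell 2.94-fold with no overlap (log2 -1.55 ± 0.24, adjusted p = 0.0155). The homeodomain factor Six6 had 471, 71.6 and 215 RPKM in ASA, against 522, 538 and 531 RPKM in DMSO replicates 1, 2 and 3. Its difference of -1.45 missed the threshold (adjusted p = 0.145). The fold of Six6 was 0.234 without ASA replicate 1 (adjusted p = 0.0292) and 0.601 without ASA replicate 2 (adjusted p = 0.133). Lhx3, a LIM-homeodomain factor that cooperates with Pou1f1, was looked at after its values were seen and had 189, 233 and 141 RPKM in ASA, against 183, 263 and 218 RPKM in DMSO replicates 1, 2 and 3. Its groups overlapped (log2 -0.25, adjusted p = 0.505).

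Of the factors that act at the Prl promoter or with Pou1f1, 28 of 34 were tested, 5 were higher and 2 lower, with a median log2 difference of 0.17. Cebpb, a basic leucine zipper factor of the C/EBP family, had 204, 304 and 199 RPKM in ASA, against 59.2, 114 and 64.4 RPKM in DMSO replicates 1, 2 and 3. It rose 3.05-fold (log2 1.61 ± 0.30, adjusted p = 0.0231). Etv5, an ETS family factor, had 28.9, 55.6 and 37.5 RPKM in ASA, against 16.7, 13.9 and 13.2 RPKM in DMSO replicates 1, 2 and 3, and rose 2.68-fold (adjusted p = 0.0258). Smad3, which carries TGF-β and activin signals, had 21, 29.5 and 30.3 RPKM in ASA, against 8.96, 12.8 and 8.05 RPKM in DMSO replicates 1, 2 and 3, and rose 2.71-fold (adjusted p = 0.0240). In all 3 genes every ASA library lay above every DMSO library. Fosl2, an AP-1 subunit, rose 2.1-fold (adjusted p = 0.0206), though 47.6% of its exon values were not whole reads. The other 3 called genes of this list were picked after their values were seen. Jun, the partner of Fos proteins in AP-1, had 31, 117 and 58.3 RPKM in ASA, against 11.1, 16.1 and 10.7 RPKM in DMSO replicates 1, 2 and 3, and rose 4.76-fold (adjusted p = 0.0285). Crem, a cyclic AMP responsive factor, fell 2.17-fold (adjusted p = 0.0388), and Ctnnb1, β-catenin, fell 1.59-fold (adjusted p = 0.0467, but 0.0551 with TMM scaling). With ASA replicate 2 left out, 9 were higher and 3 lower, against 20.9% of all genes called.

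Among coactivators and corepressors of Pou1f1, 17 of 18 were tested, 1 was higher and 1 lower, with a median of -0.06. Hdac1, a histone deacetylase of corepressor complexes, had 8.76, 7.15 and 6.86 RPKM in ASA, against 22.1, 16.2 and 20.1 RPKM in DMSO replicates 1, 2 and 3, and fell 2.54-fold (adjusted p = 0.0211). Tbl1x, a subunit of the NCoR corepressor complex, had 98.9, 98.8 and 97.0 RPKM in ASA, against 65.5, 56.7 and 56.6 RPKM in DMSO replicates 1, 2 and 3, and rose 1.65-fold (adjusted p = 0.0341). Neither gene's groups overlapped. The deacetylase Hdac2 (log2 -0.81, adjusted p = 0.0732, but 0.0348 without ASA replicate 1) and the chromatin organiser Satb1 (log2 -0.55, adjusted p = 0.0886) missed the threshold. For Hdac2 the adjusted p was 0.237 without DMSO replicate 1 (limma). Without ASA replicate 2 the counts were 2 higher and 1 lower, with 20.9% of all genes called.

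**Figure D5:**
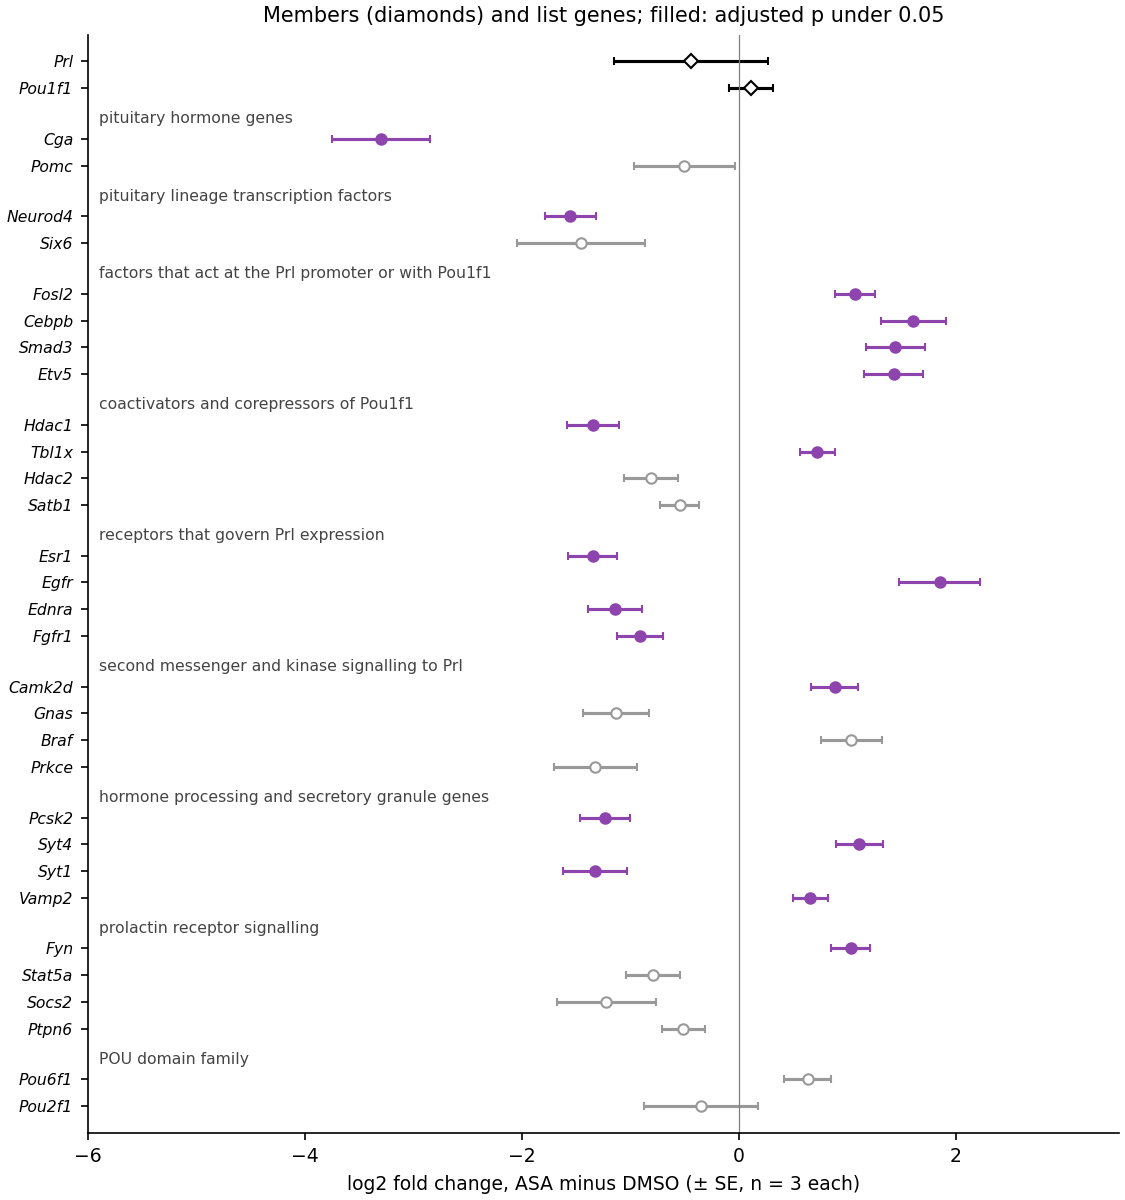
Log2 difference ASA minus DMSO with its SE for the named genes of each list, with Prl and Pou1f1 beside them. Filled points passed an adjusted p of 0.05. The estrogen receptor Esr1 lies at -1.35 and the growth factor receptor Egfr at 1.85, while Prl at -0.44 and Pou1f1 at 0.11 are open points whose SE bars are 0.71 and 0.20.

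The plot of the list genes places the members beside the receptors through which Prl is governed. Of these receptors 21 of 34 were tested, 1 was higher and 3 were lower, with a median log2 difference of -0.28. Esr1, the estrogen receptor α through which estrogen raises Prl transcription, had 45.4, 47.0 and 33.3 RPKM in ASA, against 93.7, 133 and 95 RPKM in DMSO replicates 1, 2 and 3. It fell 2.55-fold without overlap (log2 -1.35 ± 0.22, adjusted p = 0.0189). Egfr, the receptor of epidermal growth factor, had 10.9, 17.7 and 21.4 RPKM in ASA, against 3.03, 6.36 and 4.35 RPKM in DMSO replicates 1, 2 and 3. It rose 3.6-fold (log2 1.85 ± 0.38, adjusted p = 0.0290). Ednra, an endothelin receptor, fell 2.20-fold (adjusted p = 0.0340), and Fgfr1, a receptor of fibroblast growth factors, fell 1.88-fold (adjusted p = 0.0376). Drd2, the dopamine receptor and lactotroph marker, was chosen after its values were seen. It had 78.4, 126 and 49.8 RPKM in ASA, against 166, 197 and 165 RPKM in DMSO replicates 1, 2 and 3. Every ASA library lay below every DMSO library, but the difference missed the threshold (log2 -1.15 ± 0.32, adjusted p = 0.0587). Without ASA replicate 2 the receptors had 2 higher and 6 lower, where 20.9% of all genes were called. The receptors of thyrotropin-releasing hormone (Trhr), vasoactive intestinal peptide (Vipr1 and Vipr2) and galanin (Galr1 and Galr2) and the estrogen receptor β (Esr2) had no row.

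Of the second messenger and kinase genes that signal to Prl, 32 of 35 were tested, 1 was higher and none lower, with a median of -0.30. Camk2d, a calcium and calmodulin-dependent kinase, had 97.8, 72.7 and 115 RPKM in ASA, against 57.0, 46.2 and 49.7 RPKM in DMSO replicates 1, 2 and 3, and rose 1.84-fold (adjusted p = 0.0431). Gnas, the stimulatory G protein subunit upstream of cyclic AMP, had 2975, 3360 and 2019 RPKM in ASA, against 5255, 6927 and 5818 RPKM in DMSO replicates 1, 2 and 3. Its groups did not overlap, but the difference of -1.13 missed the threshold (adjusted p = 0.0523), and 43.6% of its exon values were not whole reads. The adjusted p of Gnas was 0.0240 without ASA replicate 2 and 0.215 without DMSO replicate 3 (limma). Braf, a kinase of the MAP kinase cascade, stood at log2 1.03 (adjusted p = 0.0546, 0.0215 without ASA replicate 1 and 0.0406 without ASA replicate 2). Prkce, a protein kinase C, stood at log2 -1.32 (adjusted p = 0.0637, 0.0422 without ASA replicate 1 and 0.0210 without ASA replicate 2). With any other library left out both missed the threshold. Without DMSO replicate 3 the adjusted p was 0.210 for Braf and 0.231 for Prkce (limma). Of this list 4 were higher and 3 lower when ASA replicate 2 was left out and 20.9% of all genes were called.

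Of 7 pituitary hormone genes, 3 were in the table and 1 of them, Cga, was lower. Cga, the α subunit shared by thyrotropin and the gonadotropins, had 3.24, 4.17 and 1.16 RPKM in ASA, against 28.3, 23.8 and 25.2 RPKM in DMSO replicates 1, 2 and 3. It fell 9.84-fold (log2 -3.30 ± 0.45, adjusted p = 0.0137) while Prl in the same libraries stayed within its spread. Pomc, the precursor of corticotropin, lay under 3 RPKM in all libraries, with 1.33, 1.52 and 0.919 RPKM in ASA and 2.29, 0.934 and 2.62 RPKM in DMSO replicates 1, 2 and 3 (adjusted p = 0.492). The median log2 difference of the 3 was -0.50. None of the 23 listed paralogs of Prl, mostly placental genes of the rat prolactin family, had a row.

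Some markers of other cell types were also lower in ASA. The summed gonadotroph markers (2 of 5 with a row) were 1.84 to 5.56 RPKM in ASA and 25.9 to 29.1 RPKM in DMSO libraries. The thyrotroph markers (2 of 4) were 5.66 to 33.5 RPKM in ASA and 55.4 to 74.0 RPKM in DMSO libraries. The melanotroph markers (3 of 3) were 17.7 to 25.5 RPKM in ASA and 45.8 to 53.3 RPKM in DMSO libraries, and the corticotroph markers (2 of 4) 2.11 to 4.13 RPKM in ASA and 1.39 to 3.73 RPKM in DMSO libraries. Single markers of these lists past the threshold were Cga, in the gonadotroph and thyrotroph lists, and Pcsk2, which makes up most of the melanotroph sum, and 0 of the 2 corticotroph markers passed. The other markers of these lists with a row missed it: Nr5a1 (adjusted p = 0.895), Dio2 (0.169), Pax7 (0.245), Pomc (0.492) and Tbx19 (0.307). The fibroblast marker Dcn passed in the other direction, 2.49-fold higher in ASA (log2 1.32 ± 0.24, adjusted p = 0.0213, limma). Of the lactotroph markers Esr1 passed, lower in ASA, and the macrophage marker Cd14 missed the threshold (adjusted p = 0.165, limma). The part of these cell types, and of the fibroblast marker Dcn, in the differences of the lists was not tested.

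Of the hormone processing and secretory granule genes, 22 of 23 were tested, 2 were higher and 2 lower, with a median of -0.06. Pcsk2, a prohormone convertase, had 23.7, 14.7 and 18.0 RPKM in ASA, against 41.8, 47.4 and 41.3 RPKM in DMSO replicates 1, 2 and 3, and fell 2.35-fold (adjusted p = 0.0232). Syt1, a calcium sensor of vesicle release, had 15.5, 7.74 and 9.25 RPKM in ASA, against 26.9, 23.2 and 28.7 RPKM in DMSO replicates 1, 2 and 3, and fell 2.51-fold (adjusted p = 0.0349). Syt4, of the same synaptotagmin family, had 219, 251 and 283 RPKM in ASA, against 96.6, 151 and 106 RPKM in DMSO replicates 1, 2 and 3, and rose 2.16-fold (adjusted p = 0.0273). The 2 synaptotagmins thus moved in opposite directions without overlap. Vamp2, a vesicle fusion protein, rose 1.58-fold (adjusted p = 0.0440). When ASA replicate 2 was left out, 5 were higher and 3 lower, beside 20.9% of all genes called.

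Of the genes of prolactin receptor signalling, 19 of 20 were tested, 1 was higher and none lower, with a median of -0.33. The receptor itself, Prlr, had no row. Fyn, a Src family kinase, had 72.6, 83.1 and 86.4 RPKM in ASA, against 35.3, 44.4 and 38.8 RPKM in DMSO replicates 1, 2 and 3, and rose 2.04-fold (adjusted p = 0.0204). Stat5a, the main transcription factor of prolactin signals, had 22.4, 13.3 and 14.4 RPKM in ASA, against 28.1, 28.3 and 28.3 RPKM in DMSO replicates 1, 2 and 3. Its groups did not overlap, but the difference of -0.79 missed the threshold (adjusted p = 0.0765). The adjusted p of Stat5a was 0.0266 without ASA replicate 1 and 0.262 without DMSO replicate 3 (limma). Socs2, a feedback inhibitor of cytokine receptors, stood at log2 -1.22 (adjusted p = 0.122) and the phosphatase Ptpn6 at log2 -0.51 (adjusted p = 0.133). Without ASA replicate 2 the list had 2 higher and none lower, while 20.9% of all genes were called.

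Of 14 POU domain genes, 5 had a row and 3 passed the filter, Pou1f1 among them, and none was called. Pou6f1 had 23.3, 17.7 and 21.4 RPKM in ASA, against 13.9, 14.2 and 11.9 RPKM in DMSO replicates 1, 2 and 3. Its groups did not overlap, but the log2 difference of 0.63 missed the threshold (adjusted p = 0.0991). The adjusted p of Pou6f1 was 0.0278 without ASA replicate 2 and 0.371 without DMSO replicate 3 (limma). Pou2f1, the widely expressed octamer factor, had 4.78, 15.9 and 3.76 RPKM in ASA, against 10.2, 7.01 and 8.31 RPKM in DMSO replicates 1, 2 and 3. Its log2 difference was -0.35 (adjusted p = 0.683), and without ASA replicate 2, its highest library, its fold was 0.509 (adjusted p = 0.0370). Without ASA replicate 3 the fold of Pou2f1 was 1.04 (adjusted p = 0.958). The median of the 3 was 0.11, which is the value of Pou1f1. Per length, Pou1f1 at 584 to 804 RPKM exceeded these relatives in every library.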

How the data were processed

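Polyadenylated RNA of RC-4B/C cells was made into 6 directional libraries (3 ASA, 3 DMSO), per the labels' protocols. The build Rnor_6.0 and the tools TopHat2 2.1.0, Bowtie2, cutadapt 1.14, Trim Galore 0.4.1 and edgeR 3.26.8 come from the submitters' processing notes. The sources used here give no counting tool and no use of strand, so reads of overlapping or near-identical genes may be shared. The authors deposited log2 RPKM per exon. Undoing the log showed that a fixed amount worth 0.25 read in a library of average depth had been added. After its removal 95.7% to 96.8% of values per library were whole reads (within 0.02 read).

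Reads were summed over a gene's listed exons and divided by their length and the library total. ASA was tested against DMSO with limma 3.58.1 in R 4.3.3 (trend, no covariate, two-sided) on log2(RPKM + 0.1), over genes or exons whose mean reached 0.5 RPKM, with p-values adjusted by Benjamini-Hochberg and a threshold of 0.05. Fold changes come from a difference of mean log2 values and understate those of low genes. Exon usage was tested with limma's diffSplice, and the ratio and share with exact permutation tests. The scripts were tested on simulated data. Prl, Pou1f1 and the lists were chosen with earlier results of these data known. Named genes are both members with all exons, up to 4 tested members of each list by smallest p, and the 5 genes with the highest r to each member. A few genes within this rule are not reported here. Alternatives were other pseudocounts, filters, scalings (with Prl left out of the totals, TMM, median centring), variance models, library weights, the median exon as gene value, voom on recovered reads and each library left out. Those on groups of Pou1f1 exons, on an own spread for each exon and on named genes without a library were added after seeing the data. A planned search for motifs in the promoters was not run.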

Additional observations from a re-analysis of the deposited data

How the results depend on the processing

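No alternative brought Prl or Pou1f1 past the threshold. Leaving out 1 library moved the Prl log2 difference between -1.01 (without ASA replicate 2) and 0.065 (without ASA replicate 1), with adjusted p from 0.251 to 0.956, and that of Pou1f1 between 0.01 and 0.24 (0.491 to 0.977). Pou1f1 turned negative with library weights (-0.13, adjusted p = 0.476), with the median exon as its value (-0.056, 0.885) and with exons 4 to 6 alone (-0.52, 0.419). Its exons 1, 2 and 3 turned to -0.0056, -0.036 and -0.13 with library weights, and with a library left out the usage difference of exon 3 ran from -0.022 (without ASA replicate 2) to 0.48. Prl exons 1, 2 and 3 ran from -0.96, -0.96 and -0.996 without ASA replicate 2 to 0.23, 0.21 and 0.14 without ASA replicate 1, and exons 1 and 2 turned to 0.073 and 0.055 without DMSO replicate 2. Pou2f1 ran from -0.97 without ASA replicate 2 to 0.053 without ASA replicate 3. The ratio of Prl to Pou1f1 (main log2 difference -0.55) turned to 0.081 with exons 4 to 6 of Pou1f1 and ran from -1.04 to 0.0024 with a library left out (exact permutation p from 0.4 to 1). The difference in share ran from -1.48 to 0.148 percentage points (exact permutation p from 0.3 to 0.9).

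The count of called genes (1400) was 5745 with library weights and 0 to 2618 with a library left out, and 1129 to 1606 otherwise. That of exons (2982) was 1379 without the variance trend, 44835 with library weights and 0 to 19729 with a library left out. That of exon usage (65) was 33 at a mean exon RPKM of at least 5, 0 with an own spread for each exon (3839 at an unadjusted p under 0.05, smallest adjusted p 0.18), and 4 to 260 with a library left out. The higher share of gene calls, 55.4%, was 48.3% with median centring. Of the 22 called list genes, Ctnnb1 was lost with TMM scaling (adjusted p = 0.0551), Ctnnb1 and Vamp2 with median centring, Ctnnb1 with robust variances, and Camk2d, Ctnnb1, Tbl1x and Vamp2 without the trend. No paired analysis was possible because the labels give no numbers that pair the libraries. Counting error was at most 0.488% of the value of either member in any library.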
